A study of Homo sapiens with 8 samples.

Results

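A set of 46 genes that act in the G2 phase and in mitosis was followed in CEM, an established human T-cell acute lymphoblastic leukaemia line, after an shRNA lowered ZMIZ1. The genes were taken from a fixed list by exact symbol in the annotation the authors deposited, and all 46 of 46 were found among the 20282 genes measured. The control cultures (n = 4) received a scrambled shRNA and the knockdown cultures (n = 4) an shRNA against ZMIZ1, a transcriptional coactivator of the PIAS-like family, and both groups share the same line. Cultures were described as biological replicates that are not paired, so p-values measure the spread between such cultures of a single line. A repeat with another shRNA, a rescue and a harvest time are not given in the labels, so effects of the shRNA on other transcripts cannot be told apart from loss of ZMIZ1. Total RNA was labelled from the 3' end and hybridized to Affymetrix HG-U133 Plus 2.0 arrays, one array per culture. Values are log2 signals, and every difference is knockdown minus control on that scale.

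Entry into mitosis is set by cyclin-dependent kinase 1 with its A and B cyclins, which CDC25 phosphatases switch on. Kinesin motors and their partners then build the spindle, kinetochores attach it to chromosomes, and the spindle checkpoint holds the anaphase-promoting complex (APC/C) in check until every chromosome is attached. Most of these genes are transcribed together late in the cell cycle. Their promoters often carry a cell cycle genes homology region (CHR), which is bound by the MuvB core of the DREAM and B-MYB complexes, beside CCAAT boxes bound by NF-Y.

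The promoters of KIF4A, PRC1, CDC25C, CDC25A and BUB1B are shown because these are among the largest rises described below and differ in which elements they hold. Each line gives the 150 bases before the gene start, 5′ to 3′ on the gene's strand, from RefSeq on GRCh38.p14. Capitals mark TTTGAA (the CHR letters) or CCAAT, each on either strand (TTCAAA and ATTGG on the other).
KIF4A, chrX:70289954-70290103, plus strand: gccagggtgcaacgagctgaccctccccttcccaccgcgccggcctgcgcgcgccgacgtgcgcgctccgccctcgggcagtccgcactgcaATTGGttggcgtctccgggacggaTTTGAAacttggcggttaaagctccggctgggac
PRC1, chr15:90994536-90994685, minus strand: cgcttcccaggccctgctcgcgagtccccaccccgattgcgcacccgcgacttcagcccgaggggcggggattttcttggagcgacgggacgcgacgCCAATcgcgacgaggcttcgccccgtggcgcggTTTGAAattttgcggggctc
CDC25C, chr5:138331805-138331954, minus strand: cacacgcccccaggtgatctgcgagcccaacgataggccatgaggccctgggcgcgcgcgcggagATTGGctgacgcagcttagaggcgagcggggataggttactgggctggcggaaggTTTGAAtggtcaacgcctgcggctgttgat
BUB1B, chr15:40160919-40161068, plus strand: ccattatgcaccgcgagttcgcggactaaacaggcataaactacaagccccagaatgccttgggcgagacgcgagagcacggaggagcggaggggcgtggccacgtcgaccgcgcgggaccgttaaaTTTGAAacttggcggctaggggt
CDC25A, chr3:48188418-48188567, minus strand: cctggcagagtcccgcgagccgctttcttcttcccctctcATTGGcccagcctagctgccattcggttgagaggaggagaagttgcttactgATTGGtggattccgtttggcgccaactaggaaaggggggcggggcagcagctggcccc
The first base of the CHR letters lay at position -34 from the start in KIF4A, -20 in PRC1, -30 in CDC25C and -23 in BUB1B. KIF4A, PRC1 and CDC25C had a CCAAT box upstream of it, BUB1B had none in this window, and CDC25A had 2 CCAAT boxes and no CHR letters. CDC25B and NUF2, which also rose, held neither set of letters in the same 150 bases. For CDC25B this was read only at the first listed of its 4 annotated starts. Another of its starts had CCAAT in the wider window used below. NUF2 had CHR letters after its start, at position 17. CDC25C has several annotated starts in the table, and the line shows the window that holds the CHR letters.

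Over windows of 300 bases, from 250 before to 50 after the start, 39 of the 46 genes matched a RefSeq promoter by symbol. The CHR letters were present for 28 of them (71.8%) and CCAAT for 32 (82.1%), against 18.2% and 39.7% of all 27305 genes in the promoter table. Both motifs together were present for 22 of the 39 (56.4%) and for 7.26% of all genes. Of the 107 further genes of the pathway described below, 93 had a promoter. The CHR letters were present for 45.2% of these 93, CCAAT for 62.4% and both for 25.8%. Matches of either motif were counted on both strands and also where they overlapped, and a gene with several starts counted if any window matched. A CHR match that began 1 to 40 bases before the start, a limit chosen after the positions were seen, was found for 15 of the 39 (38.5%). It was found for 16.1% of the 93 further genes and for 2.64% of all genes. Among the genes that rose in the comparison below, 8 of 12 with a promoter had such a match, and among those that did not pass, 7 of 27 had one. As the limit was set with the positions seen, this split is a description and not a test. Over the whole window the 2 sets differed less, with the CHR letters in 10 of 12 and 18 of 27 and CCAAT in 10 of 12 and 22 of 27. These are matches of letters and do not show binding.

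ZMIZ1 itself gave 11.07, 11.18, 11.19 and 11.20 in control cultures 1 to 4 and 9.76, 9.95, 10.01 and 10.07 in knockdown cultures 1 to 4. It fell by 1.21 ± 0.08 (SE; limma adjusted p = 6.57e-05), to 43.2% of the control level. This is the brightest of its 3 probe sets; with the mean of the 3 the ZMIZ1 difference was -0.46 and still passed (limma adjusted p = 0.00367). Median array signals ranged from 5.15 to 5.20. Of the T-lineage markers, CD3D (13.41 in controls), CD3G (10.98) and LCK (10.63) were bright, CD4 and CD3E lay at 7.51 and 7.36, and CD5 (5.70) and CD2 (4.02) were low. The B cell marker MS4A1 (3.99) and the myeloid markers CD14 and LYZ (4.46 and 4.16) were low, but CD79A and CD79B (7.28 and 7.98), EPCAM (8.42) and COL1A1 (7.63) were not. Of 15 markers of B, myeloid, epithelial and stromal cells 1 passed (KRT8, -0.22), while of 12 T-cell markers CD3E rose by 1.06 and CD1A fell by 0.93. Signal of the 18S ribosomal RNA control probe sets separated the groups, with 13.37, 13.24, 13.06 and 12.70 in control and 12.12, 11.67, 9.85 and 10.21 in knockdown cultures 1 to 4.

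The mitotic genes were mostly higher after knockdown, by small amounts. In bulk RNA, more cells in G2 or mitosis and more RNA per such cell cannot be told apart. Of the 46, 15 rose, 0 fell and 31 did not pass at an adjusted p under 0.05 (limma, Benjamini-Hochberg over all 20282 genes). Of all genes, 13.5% rose and 6.51% fell, which is 20% in either direction. At an unadjusted p under 0.05 (limma), 24 of the 46 were higher and 1, TOP2A, was lower. Of all 20282 genes, 6647 had such a p in either direction. By the methods' equal-variance test 10 rose (9.51% of all genes) and 0 fell after adjustment. The mitotic genes have bright probe sets, and of the 8620 genes at least as bright as the dimmest of them, 23.2% rose. Among genes with a mean of at least 10, 13 of 37 mitotic genes and 17% of 3537 genes in all rose. In differences of any size, 36 of the 46 were higher and 10 lower (56.2% of all genes were higher), with a range from -0.57 (TOP2A) to 0.68 (KIF4A). Their median difference was 0.19, against 0.03 over all genes. With every knockdown culture above every control culture, 15 genes were separated upward (16.5% of all genes) and 0 downward (8.69% of all genes). These were not the same 15: CCNB1, AURKA, KIF15 and KIF2C were separated without passing, and CDCA8, KIF11, NUSAP1 and UBE2C passed with overlapping groups.

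**Figure D1:**
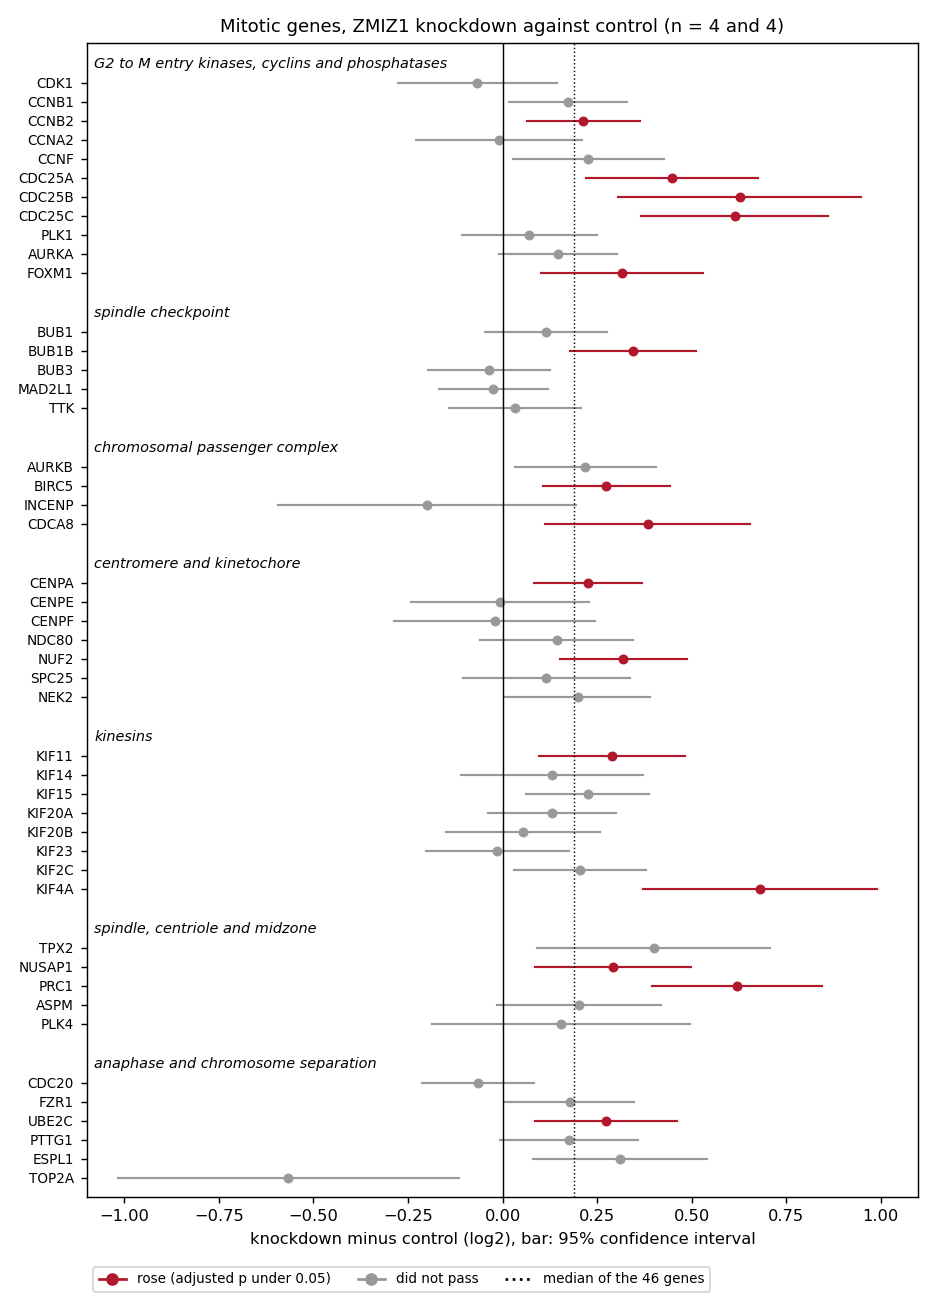
Difference between knockdown and control for each of the 46 genes (x axis, log2), grouped by role, with the 95% confidence interval of limma; red marks the 15 genes that rose, and the dotted line the median of 0.19. Points lie mostly right of 0, from TOP2A at -0.57 to KIF4A at 0.68.

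Seen array by array, the shift was present in all knockdown cultures and also, in part, in control culture 4. The number of the 46 genes above their own control mean was 14, 13, 24 and 37 in control cultures 1 to 4 and 40, 42, 33 and 37 in knockdown cultures 1 to 4. The median of the 46 deviations from the control mean was -0.08, -0.08, 0.00 and 0.11 in the control cultures and 0.15, 0.20, 0.20 and 0.19 in the knockdown cultures. The 4 knockdown cultures were thus close together in this median and above each control. Control culture 4, with the lowest 18S signal of the controls, came nearest to them. In knockdown cultures 1 to 4 the 18S signal was 12.12, 11.67, 9.85 and 10.21, beside medians of 0.15, 0.20, 0.20 and 0.19. A relation between this median and the 18S signal was not tested. With the 18S signal as a covariate, 37 of the 46 were higher and the median was 0.15, but these were not the same genes: 30 were higher in both fits, 6 turned lower and 7 turned higher, none of them among the 15 that rose. Those that turned lower included TPX2 (0.40 to -0.12), ESPL1 (0.31 to -0.03) and AURKB (0.22 to -0.03), and those that turned higher included TOP2A, CENPE (-0.01 to 0.27) and CDK1 (-0.07 to 0.19). The 18S signal of every knockdown culture lay below that of every control, so this fit cannot tell the 18S signal from the knockdown. In that fit limma called 0 of the 46, and 93 of all 20282 genes passed. At an unadjusted p under 0.05, 4 of the 46 were higher and 0 lower. This was a smaller share than over all genes, with 3023 of 20282 in either direction.

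**Figure D2:**
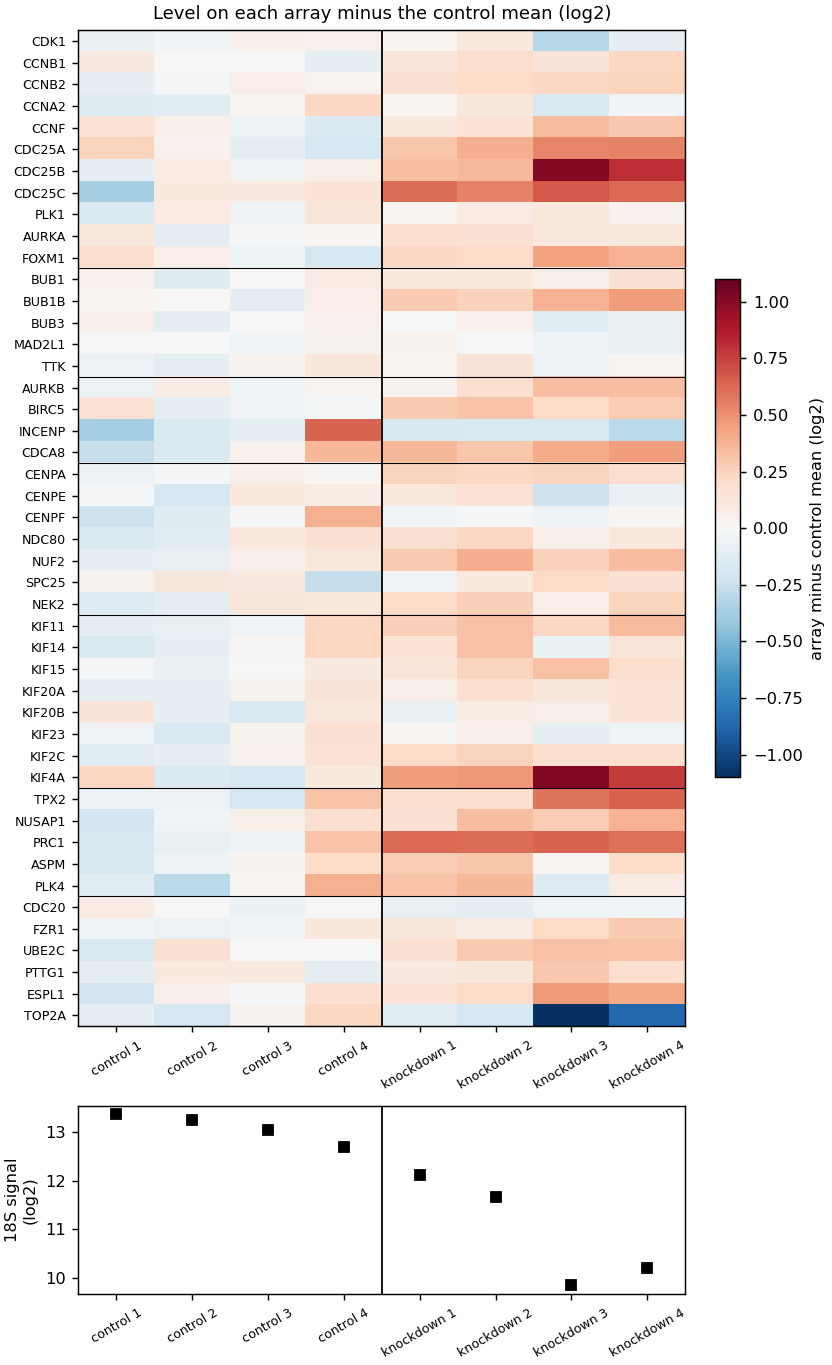
Upper panel: level of each of the 46 genes on each array minus its control mean (colour, log2), with lines between roles. Lower panel: mean 18S ribosomal RNA signal of the same arrays (log2), from 13.37 in control 1 to 9.85 in knockdown 3. PRC1 and CDC25C are evenly high in the 4 knockdown arrays, while CDC25B, KIF4A and TOP2A are most displaced in knockdown arrays 3 and 4.

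The count of 15 depended on single arrays. It was 9, 8 and 7 without control replicate 1, 2 or 3, where 12.1%, 11% and 8.97% of all genes rose. Without knockdown replicate 2, 3 or 4 it was 7, 8 and 7, where 11.2%, 9.25% and 8.97% of all genes rose. It was 14 without control replicate 4 or knockdown replicate 1, where 12.2% and 13.5% of all genes rose. In each of these 8 fits CDC25A, CDC25B, CDC25C, BUB1B, NUF2, KIF4A and PRC1 passed, with adjusted p up to 0.0443. With knockdown arrays 1 and 2 only, PRC1 alone of the 46 passed (0.62, limma adjusted p = 0.0371), where 4.23% of all genes rose. The other 8 calls were each lost without 1 array. CCNB2 and CENPA lost theirs without any of the 8 (adjusted p up to 0.118 and 0.0776). CDCA8 and KIF11 kept theirs only without control replicate 4, and otherwise reached 0.123 and 0.104. NUSAP1 kept its call without control replicate 4 or knockdown replicate 1 and lost it without any of the other 6 arrays. FOXM1 kept its call only without control replicate 1 or knockdown replicate 1, BIRC5 only without control replicate 1 or knockdown replicate 3, and UBE2C only without control replicate 2 or knockdown replicate 1. The adjusted p of these 4 then ranged up to 0.131.

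Among the genes that drive entry into mitosis, all 3 CDC25 phosphatases rose on their brightest probe sets. CDK1, the kinase they activate, did not pass. Of 11 such genes, 5 rose (CDC25A, CDC25B, CDC25C, FOXM1 and CCNB2), 0 fell and 6 did not pass, with a median difference of 0.21. Of all genes 13.5% rose. CDC25C, which dephosphorylates CDK1 at the onset of mitosis, read 7.945, 8.42, 8.40 and 8.46 in control cultures 1 to 4 and 8.92, 8.85, 8.98 and 8.93 in knockdown cultures 1 to 4. Every knockdown culture lay above every control, and control culture 1 lay below the other controls. CDC25C rose by 0.61 ± 0.11 (SE; limma adjusted p = 0.00416), a 1.53-fold difference.

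CDC25B, the family member thought to start CDK1 activation at centrosomes, read 9.99, 10.19, 10.05 and 10.17 in controls and 10.44, 10.46, 11.11 and 10.91 in knockdown cultures. The groups did not overlap, and knockdown cultures 3 and 4 stood above 1 and 2. CDC25B rose by 0.63 ± 0.15 (SE; limma adjusted p = 0.0128), but its difference was 0.01 with the 18S covariate and 0.35 with knockdown arrays 1 and 2 only. CDC25A, which also acts on CDK2 at the start of S phase, read 10.81, 10.61, 10.46 and 10.38 in controls and 10.87, 10.97, 11.10 and 11.11 in knockdown cultures. It rose by 0.45 ± 0.10 (SE; limma adjusted p = 0.0122). This call rests on the brightest of its 3 probe sets: the others had differences of -0.81 and -0.28 and did not pass, and the mean of all 3 gave -0.21 for the CDC25A difference.

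On its brightest probe set CDK1 had a difference of -0.07, with a 95% confidence interval from -0.28 to 0.14. Its controls ranged there from 12.77 to 12.90 and its knockdown cultures from 12.53 to 12.96. The other CDK1 probe sets had differences of 0.21, 0.15 and -0.47 and did not pass. CCNA2, the cyclin of S phase and G2, was at -0.01 (interval -0.23 to 0.21). The B cyclins, partners of CDK1 in mitosis, leaned higher: CCNB2 rose by 0.21 (adjusted p = 0.0485), and CCNB1, at 0.17, missed the threshold (adjusted p = 0.111), although its groups did not overlap. The other probe set of CCNB1 rose by 0.33 (adjusted p = 0.0133 over all probe sets). FOXM1, a transcription factor that activates G2 and mitosis genes, rose by 0.32 (adjusted p = 0.0433). PLK1 (0.07), AURKA (0.15) and CCNF (0.23), which encode 2 mitotic kinases and an F-box cyclin, did not pass.

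**Figure D3:**
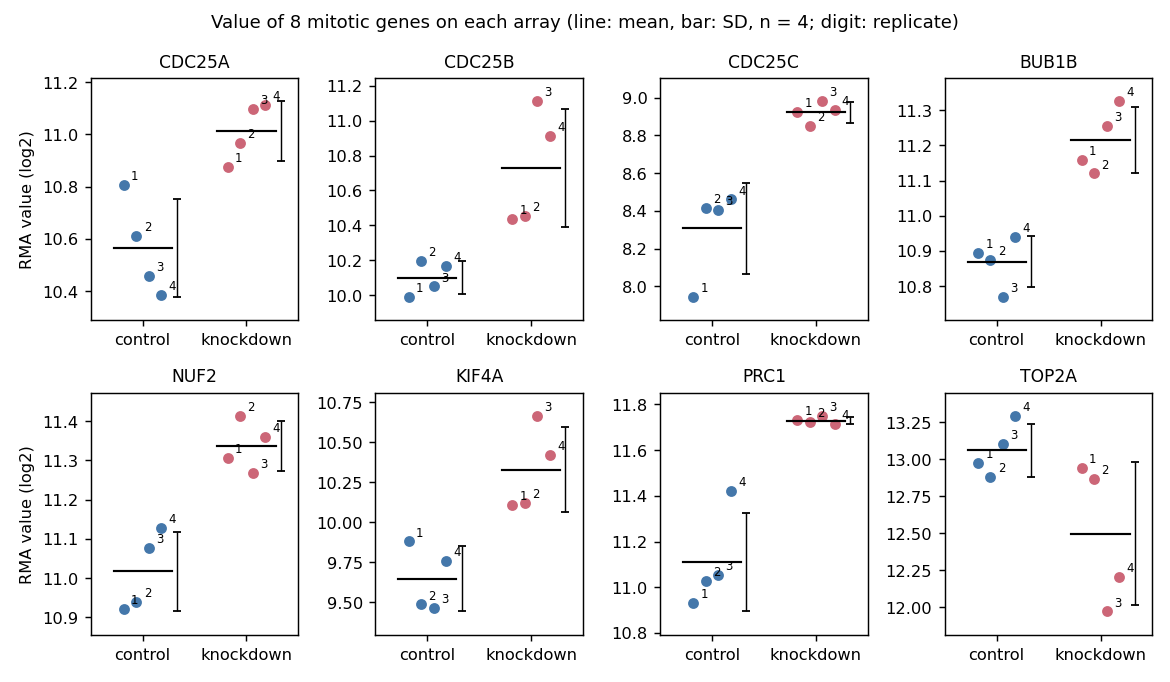
Log2 value on each array (y axis) of 8 mitotic genes in control (blue) and knockdown (red) cultures, with the group mean as a line, the SD as a bar and the replicate as a digit. Groups do not overlap in CDC25A, CDC25B, CDC25C, BUB1B, NUF2, KIF4A and PRC1; in TOP2A knockdown cultures 3 and 4 lie below all others.

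In the spindle checkpoint, which delays anaphase, 1 of 5 genes rose, against 13.5% of all genes and 23.2% of those as bright. BUB1B, which encodes the inhibitor BUBR1 of the mitotic checkpoint complex, read 10.89, 10.88, 10.77 and 10.94 in controls and 11.16, 11.12, 11.26 and 11.33 in knockdown cultures. It rose by 0.35 ± 0.08 (SE; limma adjusted p = 0.00996). With the 18S covariate its difference was 0.19 and missed the threshold (limma adjusted p = 0.533). On their brightest probe sets its partners in the same complex did not pass. There BUB3 stood at -0.04 (interval -0.20 to 0.13) and MAD2L1 at -0.02 (interval -0.17 to 0.12). MAD2L1 leaned higher on its second probe set, by 0.34 (limma adjusted p = 0.0859 over all probe sets). The remaining probe sets of BUB3 ran from -0.51, short of the threshold, to 0.36, which rose. The probe set that rose was faint, with means of 5.04 in controls and 5.40 in knockdown cultures. The sign of both partners thus differed between probe sets. The checkpoint kinases BUB1 (0.12) and TTK (0.03) did not pass either.

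The chromosomal passenger complex, which corrects faulty attachments, has 4 subunits in the set. BIRC5, also known as survivin, rose by 0.27 (adjusted p = 0.0285), from 11.23 ± 0.11 to 11.50 ± 0.04 (SD, n = 4). CDCA8, which encodes borealin, read 9.74, 9.84, 10.05 and 10.36 in controls and 10.37, 10.30, 10.41 and 10.46 in knockdown cultures. The groups of CDCA8 overlapped through control culture 4, and it passed narrowly (0.38, adjusted p = 0.0495). The kinase AURKB (0.22) and the scaffold INCENP (-0.20) did not pass. INCENP read 8.06 in control culture 4 and between 7.05 and 7.31 in the other control cultures, and its difference was 0.01 without control replicate 4.

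At the centromere and kinetochore, 2 of 7 genes rose, against 13.5% of all genes and 23.2% of those as bright. NUF2, a subunit of the NDC80 complex that binds microtubules, read 10.92, 10.94, 11.08 and 11.13 in controls and 11.31, 11.41, 11.27 and 11.36 in knockdown cultures, with no overlap. It rose by 0.32 ± 0.08 (SE; limma adjusted p = 0.0145). With the 18S covariate its difference was 0.32 and missed the threshold (limma adjusted p = 0.335). The other subunits in the set, NDC80 (0.14) and SPC25 (0.12), did not pass. CENPA, the histone H3 variant of centromeres, rose by 0.23 (adjusted p = 0.0333). CENPE (-0.01), CENPF (-0.02) and the centrosome kinase NEK2 (0.20) did not pass. CENPF and CENPE thus had intervals around 0, from -0.29 to 0.25 and from -0.24 to 0.23.

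Of the 8 kinesins, 2 rose, against 13.5% of all genes and 23.2% of those as bright. In differences of any size 7 kinesins were higher and 1 was lower, where 56.2% of all genes were higher. KIF4A, a chromosome-bound motor that works with PRC1 on the anaphase midzone, read 9.88, 9.49, 9.47 and 9.76 in controls and 10.11, 10.12, 10.66 and 10.42 in knockdown cultures. Groups did not overlap, and knockdown cultures 3 and 4 were highest. KIF4A rose by 0.68 ± 0.14 (SE; limma adjusted p = 0.00748), a 1.60-fold difference and the largest of the 46, but its difference was 0.22 with the 18S covariate (adjusted p = 0.659) and 0.47 with knockdown arrays 1 and 2 only (adjusted p = 0.0753). KIF11, the motor that pushes spindle poles apart, rose by 0.29 (adjusted p = 0.0393). KIF15 (0.23, adjusted p = 0.0534) and KIF2C (0.20) had groups that did not overlap but did not pass, and KIF14, KIF20A, KIF20B and KIF23 had differences from -0.01 to 0.13.

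PRC1, which bundles the antiparallel microtubules of the midzone, had the smallest spread between knockdown cultures of the 46 genes (SD 0.015, n = 4). It read 10.93, 11.03, 11.05 and 11.42 in controls and 11.73, 11.72, 11.75 and 11.71 in knockdown cultures. All knockdown cultures lay within a narrow band above every control, and control culture 4 was the nearest. PRC1 rose by 0.62 ± 0.10 (SE; limma adjusted p = 0.00259). With the 18S covariate its difference was 0.52 and missed the threshold (limma adjusted p = 0.238). NUSAP1, a microtubule-stabilizing protein, rose by 0.29 (adjusted p = 0.0499969, at the threshold) on its brighter probe set and had a difference of -0.66 on the dimmer one (adjusted p = 0.0631). TPX2, which activates AURKA on the spindle, missed the threshold with 0.40 (adjusted p = 0.0683). ASPM (0.20), a spindle pole protein, and PLK4 (0.15), the kinase of centriole duplication, did not pass.

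Among genes of anaphase and chromosome separation, 1 of 6 rose, against 13.5% of all genes and 23.2% of those as bright. UBE2C, the ubiquitin-conjugating enzyme of the APC/C, rose by 0.27 (adjusted p = 0.0439), from 12.70 ± 0.14 to 12.97 ± 0.07 (SD, n = 4). The activators of the APC/C did not pass: CDC20 had a difference of -0.07 (interval -0.21 to 0.08) and FZR1 one of 0.18. Separase, ESPL1 (0.31, adjusted p = 0.0588), and its inhibitor securin, PTTG1 (0.18), did not pass, while the second probe set of ESPL1 rose by 0.44 (adjusted p = 0.0352 over all probe sets).

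TOP2A, the topoisomerase that untangles sister chromatids, ran the other way on its brightest probe set and not on the next. The brightest read 12.97, 12.88, 13.10 and 13.29 in controls and 12.94, 12.87, 11.97 and 12.20 in knockdown cultures. Only knockdown cultures 3 and 4 were low, and the difference of -0.57 ± 0.20 (SE) did not pass (limma adjusted p = 0.0769), though the TOP2A difference did without knockdown replicate 1 (-0.72, adjusted p = 0.0309), and it was 0.22 with the 18S covariate. The second probe set read 12.23, 12.32, 12.42 and 12.54 in controls and 12.54, 12.64, 12.53 and 12.61 in knockdown cultures. There the groups overlapped slightly, with the knockdown mean higher by 0.20 (adjusted p = 0.135 over all probe sets). The sign of TOP2A thus differed between probe sets.

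Such disagreement was found elsewhere too. The 46 genes have 91 probe sets, and 26 genes have more than 1. Of the 45 probe sets that were not the brightest of their gene, 6 rose (8.38% of all probe sets), 2 fell (5.52%) and 37 did not pass, and 24 had the sign of the brightest one. The probe sets that rose belong to AURKA (0.30), BUB3 (0.36), CCNB1, ESPL1, FZR1 (0.34) and KIF14 (0.41), and those that fell to ASPM and to a dim probe set of TOP2A (-0.46). On ASPM the second probe set read 9.62, 9.37, 9.18 and 9.19 in controls and 8.77, 8.34, 6.31 and 6.47 in knockdown cultures. The groups did not overlap, and knockdown cultures 3 and 4 were far below the rest. This probe set fell by 1.87 (limma adjusted p = 0.0286, among all probe sets). Its brightest probe set ranged from 11.39 to 11.77 in the control and from 11.60 to 11.87 in the knockdown cultures. No probe set called in one direction had a brightest partner called in the other.

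**Figure D4:**
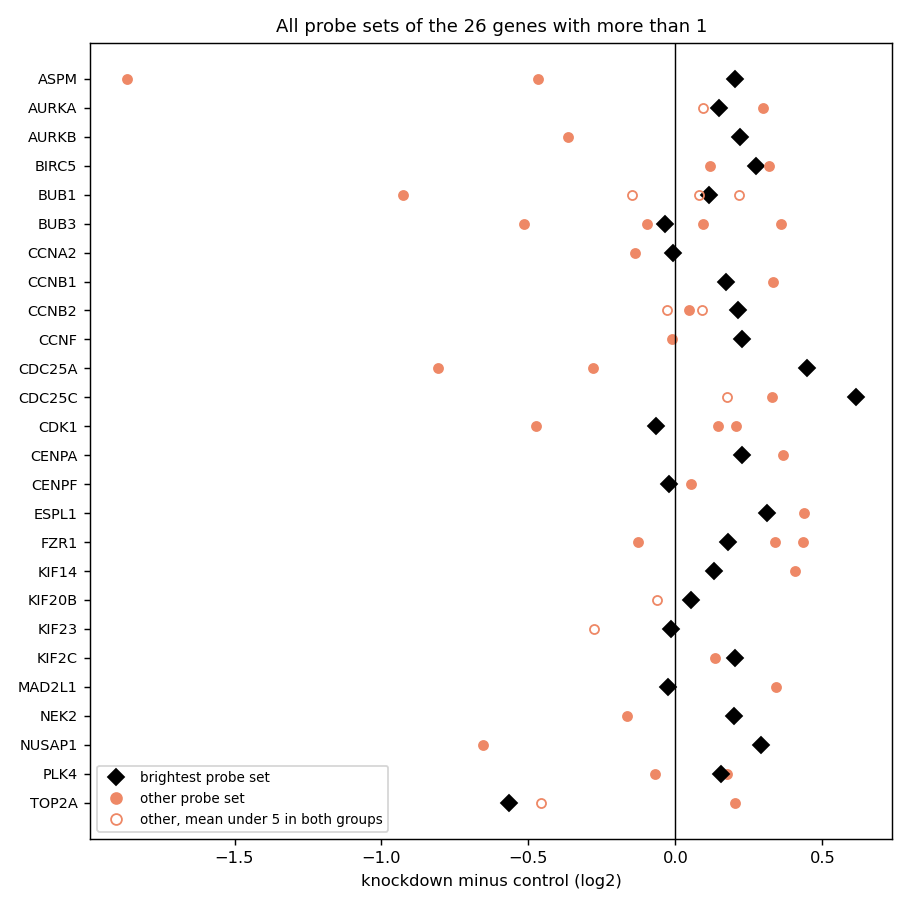
Difference between knockdown and control (x axis, log2) for every probe set of the 26 genes with more than 1. Black diamonds are the brightest probe set of each gene, filled circles the others and open circles others with a mean under 5 in both groups; ASPM at -1.87, CDC25A at -0.81 and NUSAP1 at -0.66 lie opposite to their brightest probe set.

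Knockdown cultures 3 and 4, which had the lowest 18S signal, stood apart in both directions. Both were above knockdown cultures 1 and 2 in 17 of the 46 genes, CDC25B, KIF4A and ESPL1 among them, and both were below them in 14, TOP2A among them. Over all genes these shares were 32.4% and 19.7%. The part of RNA quality in this was not tested; the 3' minus 5' signal of the GAPDH control probe sets, a measure of transcript integrity, was 0.24 ± 0.08 in controls and 0.30 ± 0.01 in knockdown cultures (SD, n = 4), and that of ACTB 1.45 ± 0.71 and 1.95 ± 0.45.

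The wider pathway was read from 109 further genes in 5 lists, of which 107 were measured. Of these, 29 rose (against 13.5% of all genes), 5 fell (against 6.51% of all genes) and 73 did not pass, with a median difference of 0.11. The count that rose ranged from 22 to 32 and the count that fell from 2 to 5 with each array left out. In these fits 8.97% to 13.5% of all genes rose. With the 18S covariate limma called 0 of the 107. In that fit 15 were higher and 2 lower at an unadjusted p under 0.05. Together this was close to the share of all genes, 3023 of 20282 in either direction. Other kinetochore and centromere proteins held the largest count of the 5 lists: 14 of 29 rose and 1 fell, with a median of 0.26. SPC24, the remaining subunit of the NDC80 complex, rose by 0.88 ± 0.09 (SE; limma adjusted p = 0.000271), from 8.82 ± 0.08 to 9.71 ± 0.14 (SD, n = 4). In that complex NUF2 and SPC24 therefore rose, while NDC80 and SPC25 did not pass. PMF1, of the MIS12 complex, rose by 0.87, CENPO, of the constitutive centromere network, by 0.72, and SKA1, which couples kinetochores to microtubules, by 0.72. ZWILCH, of the complex that recruits dynein to kinetochores, fell by 0.36 and was named for being the single fall. With the 18S covariate SPC24, PMF1, CENPO and SKA1 had differences of 0.69, 0.40, 0.45 and 0.10 and did not pass (adjusted p from 0.0702 to 0.892).

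Other motors, spindle and cytokinesis proteins followed with 6 of 25 risen in limma, against 13.5% of all genes and 23.2% of those as bright. Of these 25 genes 0 fell, against 6.51% of all genes. At an unadjusted p under 0.05, 10 of them were higher and 0 lower, against 6647 of all 20282 genes in either direction. ANLN, the anillin of the cleavage furrow, rose by 0.55, as did the spindle protein TACC3 (0.55) and the chromosome motor KIF22 (0.55), and NUMA1 rose by 0.35. The call of NUMA1 held only without control replicate 4 or knockdown replicate 1 (adjusted p otherwise up to 0.0856). Of the 25, 19 did not pass, among them MKI67 (-0.01, interval -0.18 to 0.17), which was named although it did not. Of 15 APC/C subunits and regulators, 4 rose (ANAPC2 by 0.76, ANAPC15 by 0.70, ANAPC13 by 0.47 and ANAPC11 by 0.38) and 1 fell, ANAPC1 (-0.31, adjusted p = 0.0493). ANAPC1 was named as the single fall, and its call held only without control replicate 2 (adjusted p otherwise up to 0.131).

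Cohesin and condensin genes had 2 of 19 risen, 1 fallen and a median of 0.07, counts no higher than the 13.5% and 6.51% of all genes. NCAPH2, of condensin II, rose by 0.60 and SGO1, which protects centromeric cohesion, by 0.37, and PDS5A, a cohesin regulator, fell by 0.38. PDS5A kept its call in only 3 of the 8 fits that left an array out: control replicate 2, or knockdown replicate 1 or 2 (adjusted p otherwise up to 0.0983). A mixed list of genes that restrain G2, promote entry into mitosis or act at its exit, with the MuvB subunits, had a median of -0.10, with 3 of 19 risen and 2 fallen. SFN, the 14-3-3 sigma protein that holds CDK1 in the cytoplasm, fell by 0.61 (adjusted p = 0.00194), and CHEK2, a DNA damage kinase named once its fall was seen, by 0.38. CHEK2 lost its call when control replicate 3, knockdown replicate 3 or knockdown replicate 4 was left out (adjusted p up to 0.0606). ENSA, an inhibitor of the phosphatase that opposes CDK1, rose by 0.51, and the MuvB subunits LIN37 and LIN54, the latter the protein that contacts the CHR, by 0.58 and 0.42. LIN37 kept its call in 4 of the 8 fits that left an array out, namely control replicate 2 or 4, or knockdown replicate 1 or 2 (adjusted p otherwise up to 0.0680). With the 18S covariate the LIN37 difference was 0.02. Without _s_at and _x_at probe sets the LIN37 difference and the NCAPH2 difference were -0.0820 and -0.0300.

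**Figure D5:**
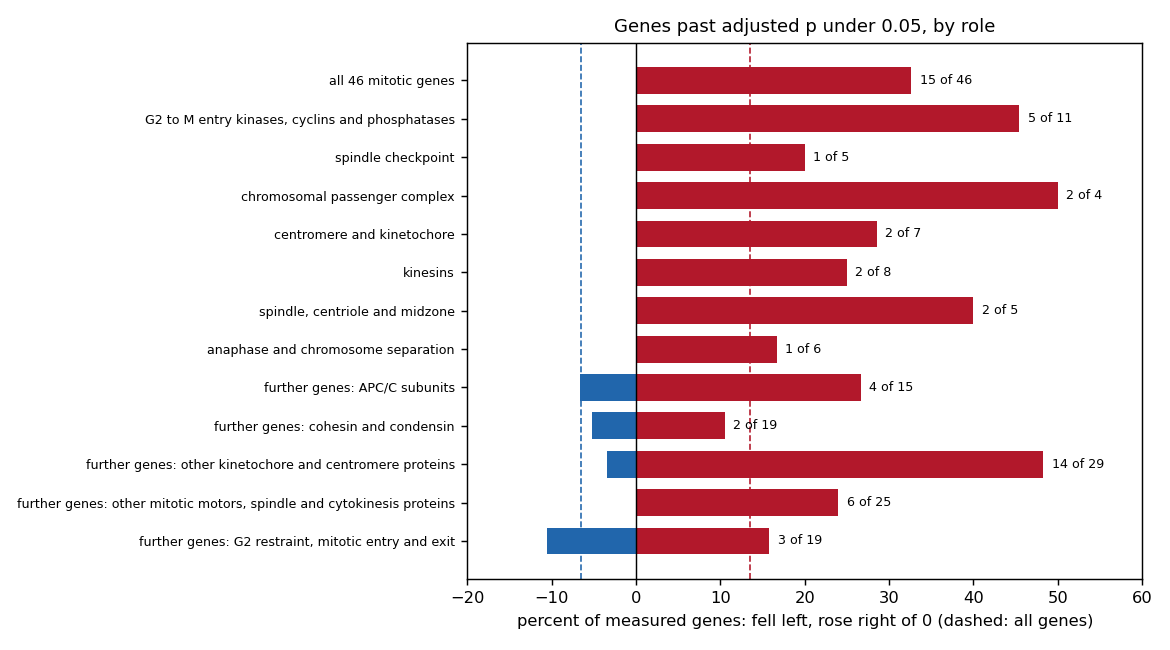
Percent of the measured genes of each role that rose (red, right of 0) or fell (blue, left of 0) at an adjusted p under 0.05, with the number risen of the number measured. Dashed lines mark all genes, 13.5% risen and 6.51% fallen; the other kinetochore and centromere proteins reach 14 of 29.

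In the authors' deposited table, 4 of the 46 genes met the authors' selection (p below 0.01, change above 1.3-fold), which 7.28% of all probe sets met. In the authors' deposited table these were CDC25A, CDC25C, KIF4A and PRC1, with ratios of knockdown over control of 1.36, 1.53, 1.60 and 1.54. All 4 are among the 7 genes that passed in each of the fits with 1 array left out. Both results were computed from the same arrays and the same values, so this overlap is not independent support for the 4 genes. The share of 7.28% covers all probe sets, dim ones included, while each of the 46 genes was read on its brightest probe set.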

How the data were processed

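The authors deposited log2 values of 54675 probe sets on 8 arrays, made with RMA per the submitters' processing notes (version not given in the sources used here), in a value table and, to within 5.0e-09, in a workbook. The workbook also gives the authors' deposited log2 group means, their unadjusted p-value from a 2-sample test and their ratio of knockdown over control. Symbols came from the workbook, updated by gene ID; 41479 probe sets have 1 symbol, 961 several and 12173 none.

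Differences were fitted by limma's lmFit and eBayes (limma 3.58.1, R 4.3.3, two-sided tests, 6 residual degrees of freedom) over 54613 probe sets, without the 62 manufacturer's controls. The brightest probe set over all 8 arrays stood for each of 20282 genes, and Benjamini-Hochberg adjustment was made over these genes, or over all probe sets for other probe sets. Arrays give no counts; 4 arrays per group limit the precision. The fit was tested on simulated data.

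The genes, lists, tests and alternatives were chosen with earlier results of these data known. Named genes were ZMIZ1, all 46 genes of the set and, from each of the 5 further lists, up to 4 genes past the threshold with the largest differences. CENPP and CENPJ found no match by symbol. A planned comparison of the CDC25 proteins was not made. Alternatives were a replicate block, array centring, repeated quantile normalization, filters on dim or _s_at and _x_at probe sets, the mean of probe sets, the methods' equal-variance test, a variance trend, the 18S covariate, knockdown arrays 1 and 2 only, each array left out, and, added after seeing the data, moderation over 1 probe set per gene.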

Additional observations from a re-analysis of the deposited data

Results flagged for a closer look

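Of 92 groups of 4 values (46 genes in 2 groups), 2 held an array far from the others of its group, where chance gives about 5 in 100. CDC25C was 7.945 in control culture 1, against 8.40 to 8.46 in the other controls; its call held without that array. INCENP was 7.13 in knockdown culture 4, against 7.25 to 7.26 in the other knockdown cultures, a gap small beside the range of its controls.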

How the results depend on the processing

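The number of mitotic genes that rose was 15 as reported and between 10 and 17 under the replicate block (11), array centring, repeated quantile normalization, the filter on dim probe sets, the mean of probe sets, the equal-variance test, the variance trend and moderation over 1 probe set per gene. It was 8 of 36 without _s_at and _x_at probe sets, where fewer genes were measured, 0 with the 18S covariate, 1 with knockdown arrays 1 and 2 only, and 7 to 14 with each array left out; 0 fell in these settings, except 1 (TOP2A) without knockdown replicate 1. All genes changed numbered 4057, 3312 with the replicate block, 93 with the 18S covariate, 1331 with knockdown arrays 1 and 2 only and 2587 to 3896 with each array left out. With the 18S covariate the standard error was larger for 45 of the 46 genes (PRC1 from 0.102 to 0.187) and smaller for CDC25B (0.145 to 0.138), whose difference went from 0.63 to 0.01. The median over the 46 genes stayed between 0.14 and 0.22 in all 19 settings.

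Signs turned for the CDC25A difference (-0.21) and the NUSAP1 difference (-0.18) with the mean of probe sets. Without _s_at and _x_at probe sets they turned for the BUB3 difference (0.36), the NCAPH2 difference (-0.0300) and the LIN37 difference (-0.0820). There another probe set stands for the gene, for BUB3 a faint one with a control mean of 5.04. The cause was not tested. Among the 46 genes, of those that passed in neither fit, 13 turned sign with the 18S covariate, 7 with knockdown arrays 1 and 2 only, 6 with the mean of probe sets, 5 with array centring, 3 without _s_at and _x_at probe sets and 0 to 5 with each array left out. The fall of ZMIZ1 kept its direction in every setting run. Same-numbered cultures did not deviate together (correlations from -0.19 to 0.10 over genes), and the design text calls them not paired, so the replicate block is given here only. A change of background correction could not be tried, since probe intensities were not used here.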
